A study of Mus musculus with 47 samples.

Results

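Olfactory epithelium from mice with the strain label OIVT;Kir2.1 (Kir below) was compared between postnatal day 14 (P14) and postnatal day 3 (P3). The comparison rests on 6 of the 47 libraries of the series, 3 Kir libraries at P14 and 3 at P3, picked by the genotype and age in their titles, which also share the prefix cry4. Wild-type C57BL/6J libraries (WT) of the same ages and prefix, 3 at P14 and 3 at P3, stand beside them to show where change with age in Kir differed from that in WT. Libraries of both genotypes at other ages between P0 and P21 entered the statistical fit. Each library holds polyadenylated RNA of dissected tissue. The labels do not expand OIVT, do not name the promoter or cell type that drives Kir2.1, and give no background strain for the Kir mice. They do not say whether a library is 1 animal or a pool, so the spread behind the p-values is that among libraries and may be technical.

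The gene Kcnj2 encodes Kir2.1, a potassium channel of the inward-rectifier family, and extra Kir2.1 is widely used to make neurons less excitable. In the olfactory epithelium, basal stem cells and dividing progenitors give rise to immature sensory neurons, which later switch on the odor transduction machinery, olfactory marker protein and, in each cell, a single odorant receptor gene. Sustentacular cells and Bowman's glands lie around the neurons, and connective tissue, vessels and turbinate bone lie beneath them.

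Between P3 and P14 the Kir epithelium gained transcripts of mature neurons, odorant receptors, detoxifying enzymes, antigen presentation, interferon-stimulated genes and bone, and lost transcripts of dividing cells, progenitors, vessels and fetal growth genes. Of 19927 genes tested, 5092 (25.6%) were called at an adjusted p below 0.05 (edgeR quasi-likelihood test with Benjamini-Hochberg adjustment, used for every adjusted p below unless another tool is named). These were 2576 genes higher at P14 (12.9% of those tested) and 2516 lower at P14 (12.6%). Among them, 1091 rose and 1030 fell at least 2-fold. The median log2 fold change over all genes tested was -0.02. The P14 and P3 libraries did not overlap for 7442 genes (37.3%), 4696 of them among the called genes. On TPM instead of counts, limma on log2(TPM + 1) called 4171 genes, of which 2940 (70.5%) were higher at P14, against 50.6% of the calls on counts. The median of all genes lay at 0.10 on that scale.

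The 6 Kir libraries held 8107547 to 15175924 counts in genes. Reads that mapped to several places made up 7.9% to 9.75% of the reads at P14 and 11.4% to 16.2% at P3. Kcnj2 (chromosome 11, 111066164 to 111076821, mm10) stood at 1450, 1390 and 1650 CPM (read counts scaled to normalized library size) in Kir P14 libraries, against 959, 644 and 132 CPM in Kir P3 libraries. WT libraries had 87.2, 79.2 and 78.4 CPM at P14 and 45, 45.3 and 48.8 CPM at P3. Every Kir library was thus above every WT library, and Kir P3 replicate 3 stood well below its group. The log2 fold change of Kcnj2 with age in Kir was 1.37 ± 0.49 (SE, adjusted p = 0.037), and 0.92 (adjusted p = 0.184) without Kir P3 replicate 3. The call was also lost without Kir P3 replicate 2 or any 1 of the P14 libraries. Kir P3 replicate 3 also had the lowest summed level of interferon-stimulated genes and the highest Omp of the P3 group. Results that it decides are therefore given with and without it, and a link of those levels to Kcnj2 was not tested. Kir P14 replicate 3 had Y-linked Ddx3y and almost no Xist, and the other 5 Kir libraries had Xist and no Ddx3y count.

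**Figure D1:**
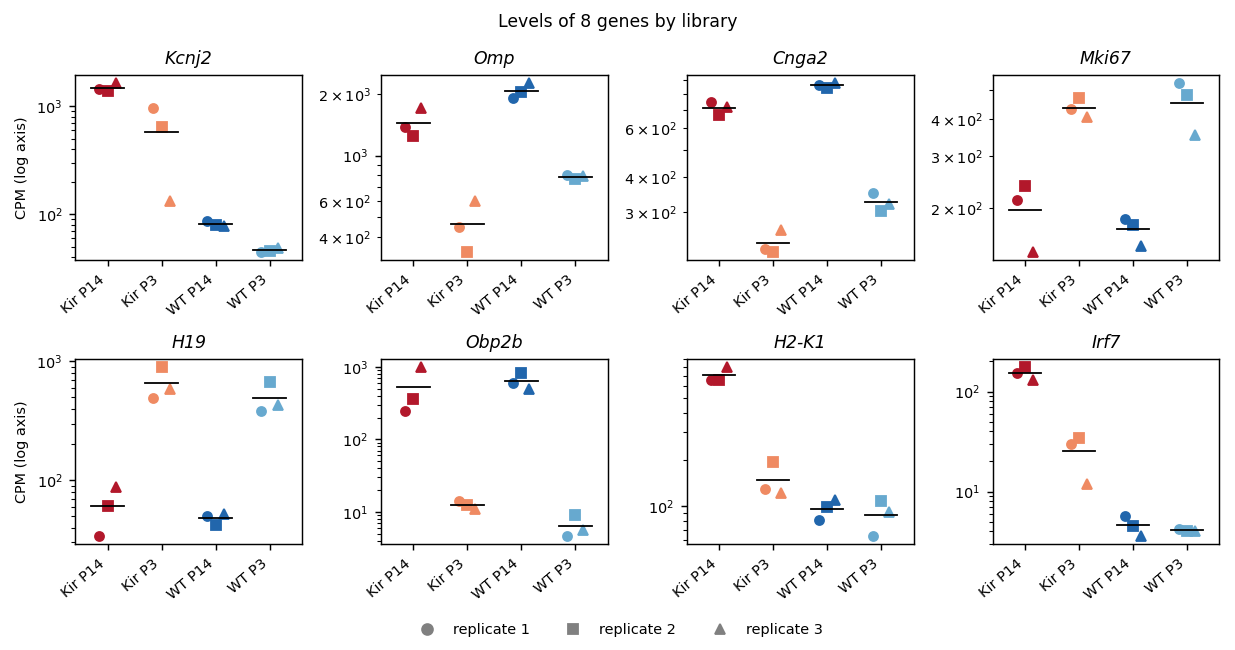
CPM on a log axis of 8 genes in the Kir P14, Kir P3, WT P14 and WT P3 libraries; symbols mark replicates 1 to 3 and bars the group means. Omp, Cnga2 and Obp2b were higher and Mki67 and H19 lower at P14 in both genotypes, H2-K1 and Irf7 were highest in Kir P14 libraries, and Kcnj2 was low in Kir P3 replicate 3.

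All 17 genes of the olfactory transduction list rose in Kir, by a median log2 fold change of 1.42 (range 0.43 to 1.91), against 12.9% of all genes tested called higher. All 17 also rose in WT, by a median of 1.05, against 12.9% of all genes there. Summed over the list, the level was 10600, 9570 and 11000 CPM in Kir P14 libraries, against 4410, 3370 and 4770 CPM in Kir P3 libraries. In bulk tissue, more neurons and more RNA per neuron cannot be told apart. Stoml3, a stomatin-like protein of sensory cilia, had 1150, 988 and 1290 CPM in Kir P14 libraries, against 317, 236 and 362 CPM in Kir P3 libraries. Its groups were far apart, with a log2 fold change of 1.91 ± 0.17 (adjusted p = 5.37e-09). Cnga2 (chromosome X, 71991849 to 72010218), the main subunit of the cyclic nucleotide-gated transduction channel, had 748, 671 and 714 CPM at P14, against 220, 216 and 259 CPM at P3 in Kir. It rose by 1.62 ± 0.16 (adjusted p = 9.75e-09), and Cnga4, a modulatory subunit of the same channel, by 1.66 ± 0.19 (adjusted p = 1.86e-07).

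Upstream windows were read for genes that moved together, 250 bases before the RefSeq start (GRCm38.p6, 5′ to 3′ on the gene's strand). The 8-base pattern CCCNNGGG, a site type bound by Ebf factors, which control olfactory neuron genes, reads the same on both strands. It occurred in 9 of the 15 transduction genes with a window (60%), against 17.4% of the 13898 tested genes with a window and 11.8% of all windows. Of the mature sensory neuron markers, which rose too, 1 of 5 with a window held it (20%). The transduction genes with the smallest adjusted p whose windows hold it are shown, with the matches in capitals. The Ano2 window lies inside the longer gene span of GENCODE M21, while the Cnga2 window lies upstream of the gene.
Cnga2, chrX:71991599-71991848, plus strand: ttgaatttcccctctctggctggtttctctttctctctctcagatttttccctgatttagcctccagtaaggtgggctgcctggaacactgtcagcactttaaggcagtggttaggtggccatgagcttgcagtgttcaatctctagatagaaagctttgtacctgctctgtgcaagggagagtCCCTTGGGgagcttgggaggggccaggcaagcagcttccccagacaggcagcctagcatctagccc
Ano2, chr6:125710938-125711187, plus strand: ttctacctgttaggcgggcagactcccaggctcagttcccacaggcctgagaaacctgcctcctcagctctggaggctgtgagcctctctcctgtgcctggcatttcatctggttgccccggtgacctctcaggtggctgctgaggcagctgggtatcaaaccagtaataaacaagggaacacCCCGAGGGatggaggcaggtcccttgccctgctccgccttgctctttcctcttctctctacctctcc
Ano2 encodes the calcium-activated chloride channel of olfactory cilia. It stood at 261, 253 and 299 CPM in Kir P14 libraries, against 101, 81.6 and 121 CPM in Kir P3 libraries, a rise of 1.42 ± 0.19 (adjusted p = 1.88e-06).

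The 10 mature sensory neuron markers all rose in Kir (median 1.28), and 6 of 10 rose in WT (median 0.85), against 12.9% of all genes in each. Without Kir P3 replicate 3 all 17 transduction genes and all 10 mature markers were still called higher. Omp, olfactory marker protein (chromosome 7, 98143359 to 98145502), had 1380, 1250 and 1700 CPM in Kir P14 libraries, against 450, 340 and 600 CPM in Kir P3 libraries. Every P14 library was more than 2 times as high as any P3 library, with a log2 fold change of 1.64 ± 0.19 (adjusted p = 2.29e-07). WT libraries were higher at both ages, at 1910, 2040 and 2260 CPM at P14 and 799, 772 and 790 CPM at P3, a change of 1.39 ± 0.19. Faim2, an inhibitor of apoptosis in neurons, rose by 2.04 ± 0.22, Umodl1, a membrane protein of mature olfactory neurons, by 1.51 ± 0.21, and Kirrel3, an adhesion molecule of axon sorting, by 1.23 ± 0.18. S100a5, a calcium-binding protein whose level is known to follow activity in these neurons, had 247, 189 and 257 CPM at P14, against 71.1, 53.8 and 148 CPM at P3 in Kir. The P14 libraries were higher, and P3 replicate 3 was the highest of its group. Its rise was 1.34 ± 0.28 (adjusted p = 0.000618), and 1.90 without Kir P3 replicate 3. In WT, S100a5 stood at 660, 545 and 600 CPM at P14 and at 301, 245 and 265 CPM at P3, so all Kir libraries lay below all WT libraries of the same age. The Kir minus WT difference in its change was 0.18 ± 0.39 (adjusted p = 0.93), and 0.79 without Kir P3 replicate 3, at an unadjusted p below 0.05. Without that library no gene was called for the difference (smallest adjusted p = 0.585).

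Of 1107 odorant receptor genes in the table, 997 passed the filter on low counts. Of these, 560 rose in Kir, against 12.9% of all genes tested, 1 fell and 436 were not called. Their median log2 fold change was 1.19 (quartiles 0.84 and 1.57), and in WT 493 rose and 1 fell, with a median of 1.01. The filter keeps genes that are high in any group, so the 110 receptors it removed carry no test. Leaving out Kir P14 replicate 1 lowered the number of rising receptors to 329, and leaving out Kir P3 replicate 2 to 368. Receptors with a mean of at least 1 CPM numbered 802 at P14 and 537 at P3 in Kir, and 941 at P14 and 765 at P3 in WT. The receptors' share of all gene counts was 0.438%, 0.38% and 0.275% in Kir P14 libraries, against 0.177%, 0.132% and 0.166% in Kir P3 libraries. The groups did not overlap, and Kir P14 replicate 3 was the lowest of its group. The means were 0.364% ± 0.0827 at P14 and 0.158% ± 0.0231 at P3 (SD, n = 3 each, exact two-sided permutation p = 0.1, the smallest p that 3 against 3 allows). In WT the share was 0.555%, 0.437% and 0.584% at P14 and 0.304%, 0.23% and 0.295% at P3.

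**Figure D2:**
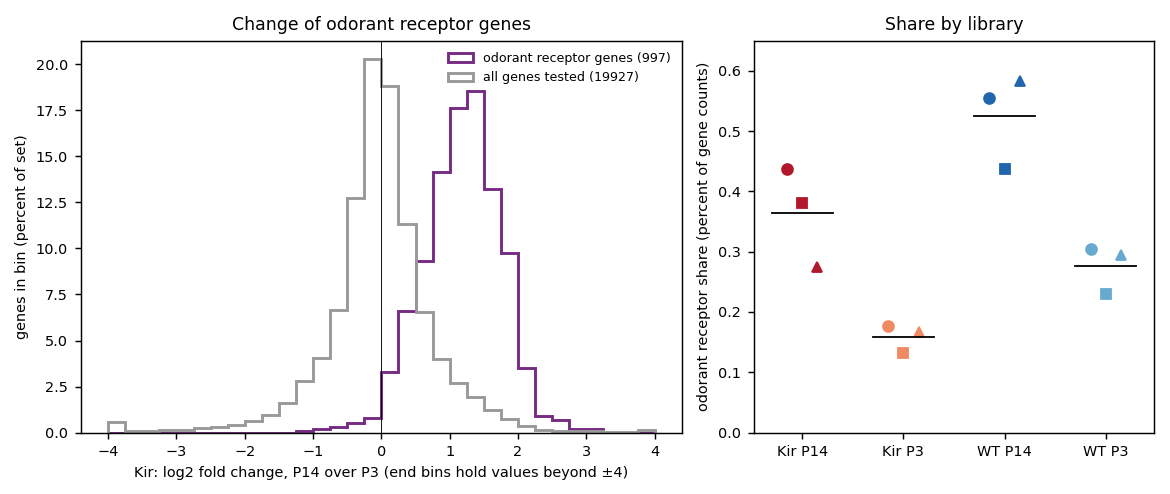
Left, the log2 fold change of P14 over P3 in Kir for the 997 odorant receptor genes and for all 19927 genes tested, as percent of each set per bin. Right, the percent of gene counts in receptor genes for each library, with bars at the group means; receptors centre near 1.19 and all 3 Kir P14 libraries lie above the Kir P3 libraries.

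Class I receptors, the fish-like class, were taken as Olfr543 to Olfr692 by number. Of these, 22 of 104 were called higher (21.2%, median 0.62), and of the other receptors 538 of 893 (60.2%, median 1.28). In WT, 19 of the class I and 474 of the other receptors rose. The difference between the sets was not tested. Olfr1507 (chromosome 14, 52488791 to 52495749) had 53.4, 84.4 and 43.2 CPM in Kir P14 libraries, against 11.4, 13.4 and 12.7 CPM in Kir P3 libraries, a rise of 2.28 ± 0.27 (adjusted p = 2.1e-07). Olfr536 had 98.7, 122 and 74.4 CPM at P14, against 32.2, 23.6 and 25.4 CPM at P3, a rise of 1.86 ± 0.18 (adjusted p = 7.79e-09). Both receptors were at least 2 times as high in each P14 library as in any P3 library. The only receptor that fell was Olfr513, with 1.19, 1.39 and 1.8 CPM at P14, against 2.49, 2.47 and 4.02 CPM at P3 (-1.07 ± 0.35, adjusted p = 0.0228). No receptor was called lower without Kir P3 replicate 3, Kir P14 replicate 1 or Kir P14 replicate 2. Olfr513 also fell in WT, by 2.08 on the log2 scale (adjusted p = 1.55e-05). Of the trace amine receptors, a smaller family of olfactory receptors, 6 of 11 rose (median 0.95), against 12.9% of all genes. Among them was Taar9, with 1.99, 1.67 and 1.16 CPM at P14, against 0.355, 0.103 and 0.201 CPM at P3. Leaving out Kir P14 replicate 1 left 1 of these rises, Kir P14 replicate 3 left 3, and Kir P3 replicate 1 or 2 left 2.

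Among the 12 regulators of receptor choice, 6 rose and 1 fell (median 0.55), against 12.9% of all genes called higher and 12.6% called lower. Atf5, a transcription factor of the receptor feedback response, had 1410, 1490 and 2160 CPM in Kir P14 libraries, against 1020, 696 and 875 CPM in Kir P3 libraries, a rise of 0.96 ± 0.21 (adjusted p = 0.000867). Lbr, the lamin B receptor whose loss lets receptor genes gather in the nucleus, fell by 0.46 (adjusted p = 0.000489). Hist2h2be, a histone H2B variant of sensory neurons, rose by 0.78 ± 0.15, and Ebf4 by 1.13 ± 0.25. Of the 22 axon guidance and sorting genes, 16 rose and none fell (median 0.77, in WT 14 and 0). Sema7a, a semaphorin of olfactory axons, had 113, 104 and 142 CPM at P14, against 31, 20 and 37 CPM at P3 in Kir, a rise of 2.03 ± 0.22 (adjusted p = 7.27e-08). Pcdh10, a protocadherin, rose by 2.06 ± 0.38, and Efna3, an ephrin, by 1.31 ± 0.23.

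Of 17 immature neuron markers, 6 rose and 1 fell (median 0.39), against 12.9% of all genes called higher and 12.6% called lower. Without Kir P3 replicate 3, 4 rose and none fell. In WT 4 rose and 2 fell. Stmn4, a microtubule regulator, rose by 1.62 ± 0.27, and Hdac9, a histone deacetylase, by 0.84 ± 0.18. Gap43, the growth cone protein of immature neurons, had 371, 346 and 511 CPM in Kir P14 libraries, against 260, 269 and 244 CPM in Kir P3 libraries. The groups did not overlap, yet the rise of 0.67 ± 0.24 (adjusted p = 0.0339) lost its call without any 1 of the P3 libraries, without Kir P14 replicate 3 and with the cry4 libraries alone. In WT, Gap43 had 298, 312 and 300 CPM at P14 and 386, 389 and 240 CPM at P3 (-0.16 ± 0.23), and the difference between genotypes was 0.82 ± 0.33 (adjusted p = 0.734).

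Genes of dividing cells fell together. All 30 cell cycle genes fell in Kir, by a median of 1.10 on the log2 scale (range -1.40 to -0.58), against 12.6% of all genes tested called lower. All 30 fell in WT, with a median of -1.37, against 9.7% of all genes there. Without Kir P3 replicate 3, 29 of 30 were called. For 9 of the 30 the Kir minus WT difference was positive at an unadjusted p below 0.05, against 3.21% of all genes. None was called for the difference after adjustment by edgeR, while DESeq2 called Plk1 (0.88, adjusted p = 0.0369). Mki67, the proliferation marker Ki-67 (chromosome 7, 135689784 to 135716361), had 213, 237 and 143 CPM in Kir P14 libraries, against 431, 472 and 405 CPM in Kir P3 libraries. Every P14 library was below every P3 library, with a log2 fold change of -1.14 ± 0.18 (adjusted p = 2.55e-05). Birc5, or survivin, had 12, 16.1 and 12.6 CPM at P14, against 34, 38.1 and 32.8 CPM at P3, a change of -1.36 ± 0.12 (adjusted p = 5.37e-09). Aurkb, the mitotic Aurora B kinase, changed by -1.15 ± 0.13 in Kir and by -1.80 ± 0.14 in WT, a difference of 0.65 ± 0.19 (adjusted p = 0.679). The neurogenic progenitor list went the same way, with 8 of 13 genes lower and none higher in Kir (median -0.52), and 10 of 13 lower in WT (median -1.13). For 8 of the 13 the difference between genotypes was positive at an unadjusted p below 0.05, against 3.21% of all genes, and none was called after adjustment. Kit, a receptor tyrosine kinase of progenitors, had 72.5, 75.4 and 63.1 CPM at P14, against 163, 128 and 140 CPM at P3 in Kir (-1.03 ± 0.12, adjusted p = 2.28e-07). The count of progenitor genes that fell was 4 without Kir P3 replicate 1 or replicate 3, 5 without any other 1 of the Kir libraries except Kir P14 replicate 3, and 2 on TPM.

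The CCAAT box, read as CCAAT or ATTGG and known from promoters of mitotic genes, occurred in the 250-base windows of 22 of the 27 cell cycle genes with one (81.5%), against 39.2% of tested genes. It was not particular to genes that fell. Of antigen presentation genes, which rose, 11 of 16 of MHC class I (68.8%) and 4 of 4 of class II (100%) held it. The shares were 46.7% of transduction genes, 40% of mature neuron markers and 36.4% of interferon-stimulated genes. The members with the smallest adjusted p that hold it are shown with the matches in capitals, and in Ube2c 1 match on each strand overlap. Both windows lie upstream of the RefSeq start and reach into the GENCODE gene span by 31 bases in Ube2c and 26 bases in Cdk1.
Ube2c, chr2:164769679-164769928, plus strand: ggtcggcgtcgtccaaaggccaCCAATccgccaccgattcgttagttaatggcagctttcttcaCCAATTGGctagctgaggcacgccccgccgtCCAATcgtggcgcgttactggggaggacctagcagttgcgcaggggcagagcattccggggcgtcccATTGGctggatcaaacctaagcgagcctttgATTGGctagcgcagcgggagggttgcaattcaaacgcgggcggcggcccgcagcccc
Cdk1, chr10:69352913-69353162, minus strand: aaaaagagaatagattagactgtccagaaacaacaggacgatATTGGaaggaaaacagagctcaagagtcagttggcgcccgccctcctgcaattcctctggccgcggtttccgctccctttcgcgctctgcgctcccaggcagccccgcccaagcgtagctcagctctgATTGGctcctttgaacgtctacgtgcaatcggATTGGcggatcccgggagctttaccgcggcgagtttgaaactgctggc
Ube2c, a ubiquitin-conjugating enzyme of mitotic exit, had 14.7, 14.7 and 14.1 CPM in Kir P14 libraries, against 29.7, 33.3 and 34.6 CPM in Kir P3 libraries. Cdk1, the kinase that drives entry into mitosis, had 31, 34.3 and 25.3 CPM at P14, against 68.4, 95.5 and 76.7 CPM at P3. The changes were -1.17 ± 0.14 for Ube2c (adjusted p = 2.13e-07) and -1.40 ± 0.16 for Cdk1 (adjusted p = 2.21e-07).

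Genes of sustentacular cells, glands and other non-neuronal cells were set against the 12.9% of all genes called higher and the 12.6% called lower. Of 12 sustentacular cell genes tested, 5 rose and none fell (median 0.36), with 7 positive and 5 negative values. The negative values were those of Krt8 (-0.28), Krt18 (-0.09), Sox2 (-0.01), Hes1 (-0.29) and Hes5 (-0.18), none of them called. In WT, 5 sustentacular cell genes rose and 2 fell. Of 32 xenobiotic enzymes 16 rose and 1 fell (median 0.53), with 10 rises without Kir P3 replicate 1. Cyp1a2, a cytochrome P450 in both lists, had 391, 346 and 447 CPM in Kir P14 libraries, against 90.7, 108 and 89.4 CPM in Kir P3 libraries, a rise of 2.04 ± 0.25 (adjusted p = 4.54e-07). Cyp2g1, the olfactory-specific P450, had 3810, 3320 and 3520 CPM at P14, against 1200, 1660 and 1660 CPM at P3 (1.24 ± 0.26, adjusted p = 0.000506). Sec14l3, a lipid-binding protein, rose by 1.32 ± 0.20 and Cyp2e1 by 3.10 ± 0.38. WT gave similar values, 1.75 for Cyp1a2 and 1.27 for Cyp2g1. Among 18 gland genes, 3 rose and 4 fell (2 without Kir P14 replicate 1 or replicate 2). The median of the 18 was -0.25, with 8 positive and 10 negative values. Those that fell were Lyz1 (-3.04, adjusted p = 0.00338), Ltf (-2.395, adjusted p = 0.0174), Sox9 (-0.995, adjusted p = 0.00393) and Muc5ac (-5.19, adjusted p = 0.0125). Muc5ac lost its call without Kir P3 replicate 3. Bpifb3, a secreted lipid-binding protein, had 624, 712 and 569 CPM at P14, against 76.1, 74.5 and 100 CPM at P3 (2.93 ± 0.33, adjusted p = 1.23e-07). Scgb1c1, a secretoglobin, rose by 1.61 ± 0.19. The summed gland level was 10100, 26500 and 19400 CPM at P14 and 29900, 65500 and 47500 CPM at P3, a wide spread within both groups. Of 9 lipocalin carriers, which bind odorants in mucus, 3 rose. Obp2b (chromosome 2, 25737009 to 25740097) had 247, 356 and 998 CPM at P14, against 14.2, 12.5 and 11.1 CPM at P3, a rise of 5.40 ± 1.19 (adjusted p = 0.000989). Of 15 microvillous and tuft cell genes 3 rose, with Avil, an actin-binding villin relative, at 1.88 ± 0.25. Horizontal basal cell markers gave 4 falls of 12 (median -0.46), which became 1 without Kir P14 replicate 1 or Kir P3 replicate 3 and 2 without Kir P14 replicate 2 or Kir P3 replicate 2. Their keratins Krt5 (-0.07 ± 0.52) and Krt14 (-0.42 ± 0.52) were not called.

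Interferon-stimulated genes were higher at P14 in Kir. Of 31 such genes, 25 rose and none fell (median 1.57, all 31 values positive), against 12.9% of all genes, while in WT 2 rose (median 0.19). Leaving out Kir P3 replicate 3 left 10 rises of 31 (median 1.25), leaving out Kir P14 replicate 1 left 16 and leaving out Kir P14 replicate 2 left 14. Summed over the list the level was 2440, 2710 and 1930 CPM in Kir P14 libraries, against 868, 1070 and 510 CPM in Kir P3 libraries, and 402, 365 and 398 CPM in WT P14 libraries, against 329, 333 and 300 CPM in WT P3 libraries. Kir was above WT at both ages, and Kir P3 replicate 3 was the nearest to WT. A link between these levels and Kcnj2 was not tested. Irf7 (chromosome 7, 141262706 to 141266481), a master transcription factor of interferon induction, had 154, 176 and 132 CPM in Kir P14 libraries, against 30.1, 34.2 and 11.9 CPM in Kir P3 libraries, a rise of 2.61 ± 0.62 (adjusted p = 0.00205). WT libraries stayed between 3.63 and 5.76 CPM at P14 and between 4 and 4.22 CPM at P3. Ifi27 had 180, 186 and 179 CPM at P14, against 54.1, 73.6 and 51.4 CPM at P3 in Kir (1.61 ± 0.33, adjusted p = 0.000416). Ifih1, the cytosolic RNA sensor MDA5, had 126, 137 and 99.8 CPM at P14, against 42.4, 53.2 and 26 CPM at P3 in Kir (1.58 ± 0.33, adjusted p = 0.000593). Irf7, Ifi27 and Ifih1 kept their calls without Kir P3 replicate 3, at 2.28, 1.53 and 1.36. For 10 of the 31 genes the difference in change between Kir and WT was positive at an unadjusted p below 0.05, against 3.21% of all genes, and for none was it called after adjustment. A fit of the 12 Kir and WT libraries with a replicate block called it for 7 of them, Irf7, Irf9, Ifih1, Ifi44, Oasl2, Usp18 and Rtp4 (adjusted p = 0.016 for Irf7). The same 12 libraries without the block called it for none of the 31 genes, nor did any other setting. Replicate numbers were not otherwise taken as pairs. Ifit3 and its copy Ifit3b, both not called without Kir P3 replicate 3, share sequence, so their levels count uniquely mapped reads alone.

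The interferon-stimulated response element, searched as GAAA repeated after a gap of any 2 bases (TTTC on the other strand), occurred in 12 of the 22 interferon-stimulated genes with a window (54.5%), against 3.46% of tested genes and 2.98% of all windows. The rising members with the smallest adjusted p that hold it are shown with the matches in capitals. The windows reach into the GENCODE gene span by 2 bases in Oas3 and 18 bases in Ifit1.
Oas3, chr5:120777660-120777909, minus strand: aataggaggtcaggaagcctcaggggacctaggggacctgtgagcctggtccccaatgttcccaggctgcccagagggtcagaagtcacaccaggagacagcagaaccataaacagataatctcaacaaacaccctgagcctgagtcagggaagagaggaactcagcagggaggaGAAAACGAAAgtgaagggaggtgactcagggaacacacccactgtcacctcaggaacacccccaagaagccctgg
Ifit1, chr19:34640639-34640888, plus strand: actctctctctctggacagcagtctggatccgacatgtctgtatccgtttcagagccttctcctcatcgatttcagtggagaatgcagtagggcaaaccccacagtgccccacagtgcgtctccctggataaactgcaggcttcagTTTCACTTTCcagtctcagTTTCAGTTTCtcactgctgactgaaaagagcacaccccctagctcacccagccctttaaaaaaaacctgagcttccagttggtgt
Oas3, an oligoadenylate synthetase that senses double-stranded RNA, had 11.1, 16 and 7.33 CPM in Kir P14 libraries, against 2.75, 2.98 and 1.81 CPM in Kir P3 libraries (2.21 ± 0.42, adjusted p = 0.00019). Ifit1, which binds foreign RNA caps, had 255, 228 and 123 CPM at P14, against 33.8, 57.3 and 13.9 CPM at P3 (2.54 ± 0.63, adjusted p = 0.00281). The element was found in 3 of the 16 class I presentation genes with a window (18.8%).

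Genes of MHC class I antigen presentation, the display of cellular peptides to T cells, rose in Kir. Of 18, 14 rose and none fell (median 1.44), against 12.9% of all genes called higher. In WT none was called in either direction (median 0.06). Without Kir P3 replicate 3, 11 of 18 were called higher (median 1.24). The summed level was 2340, 2340 and 2460 CPM in Kir P14 libraries, against 733, 997 and 731 CPM in Kir P3 libraries, and 519, 559 and 615 CPM in WT P14 libraries, against 500, 633 and 553 CPM in WT P3 libraries. H2-K1 (chromosome 17, 33996017 to 34000347), a classical class I heavy chain, had 656, 654 and 797 CPM in Kir P14 libraries, against 129, 193 and 121 CPM in Kir P3 libraries. It rose by 2.25 ± 0.33 (adjusted p = 6.34e-06), and WT libraries stood at 80.6, 98.8 and 109 CPM at P14 and 64.2, 108 and 90.8 CPM at P3. H2-D1, the other classical heavy chain, had 354, 370 and 452 CPM at P14, against 106, 158 and 119 CPM at P3 in Kir, a rise of 1.62 ± 0.30 (adjusted p = 0.000146). B2m, the shared light chain, had 690, 649 and 491 CPM at P14, against 141, 203 and 136 CPM at P3 in Kir (1.93 ± 0.34, adjusted p = 6.78e-05). Tapbp, the peptide-loading chaperone tapasin, rose by 1.08 ± 0.17 and H2-Q6, a non-classical heavy chain, by 4.05 ± 0.57. Class I heavy chains are near-identical copies whose shared reads were not counted, and the Kir background strain is not given, so their levels depend on which reads mapped uniquely to the reference.

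The Kir minus WT difference in the class I genes was positive at an unadjusted p below 0.05 for 13 of 18, against 3.21% of all genes. It was 2.118 ± 0.45 for H2-K1 and 2.102 ± 0.42 for H2-D1 (adjusted p = 0.247 for both). Over the 24 other settings the adjusted p of H2-K1 ranged from 0.000718 to 0.85, with 7 below the threshold, and the difference itself from 1.996 to 2.359. The all-library fit called no gene for the difference, with 1336 genes at an unadjusted p below 0.05, while DESeq2 called 14 and limma on log2(TPM + 1) called 3, both including H2-K1 and H2-D1. Of the 14 DESeq2 calls, 5 were negative, at -34.03 to -18.22, and Y-linked Ddx3y stood at 25.79. Values of that size were not read as effects. Fitting the cry4 libraries alone called 5 genes, H2-K1, H2-D1, H2-Q4, H2-Q6 and B2m. These genes were named after their values were seen.

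Markers of immune cells were examined beside the class I genes, against the 12.9% of all genes called higher and the 12.6% called lower. Of 18 macrophage genes none was called higher and 3 fell (median 0.02, 1 fall without Kir P3 replicate 2), with a summed level of 272, 309 and 248 CPM in Kir P14 libraries, against 264, 420 and 322 CPM in Kir P3 libraries. Mrc1, the mannose receptor of tissue macrophages, fell by 1.39 on the log2 scale (adjusted p = 0.00427). On other settings up to 2 macrophage genes were called higher. Of 11 lymphoid genes tested, 1 rose (Cd4, adjusted p = 0.0688 without Kir P3 replicate 3) and 1 fell (Cd79a), both on low counts, and the summed level was 19 to 27.7 CPM at P14 and 22.4 to 29.9 CPM at P3. Cd8a and Cd3e were at or near 0 in every library. Of 8 neutrophil genes 2 fell, S100a8 and S100a9. None fell without Kir P14 replicate 3 or Kir P3 replicate 2, and 1 fell without Kir P14 replicate 1, Kir P14 replicate 2 or Kir P3 replicate 3 (S100a9 adjusted p = 0.0653 without the last). Class II genes, which antigen-presenting cells carry, rose in all 7 cases (median 1.81), and 5 of 7 rose in WT (median 1.57). H2-Eb1 had 9.42, 12.8 and 10.9 CPM at P14, against 2.04, 2.47 and 2.54 CPM at P3 in Kir (2.22 ± 0.35, adjusted p = 1.67e-05). Without Kir P3 replicate 3, 6 of 7 class II genes rose, and 5 of 7 without Kir P14 replicate 3 or Kir P3 replicate 2. The part that immune cells take in the class I and interferon values was not tested.

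**Figure D3:**
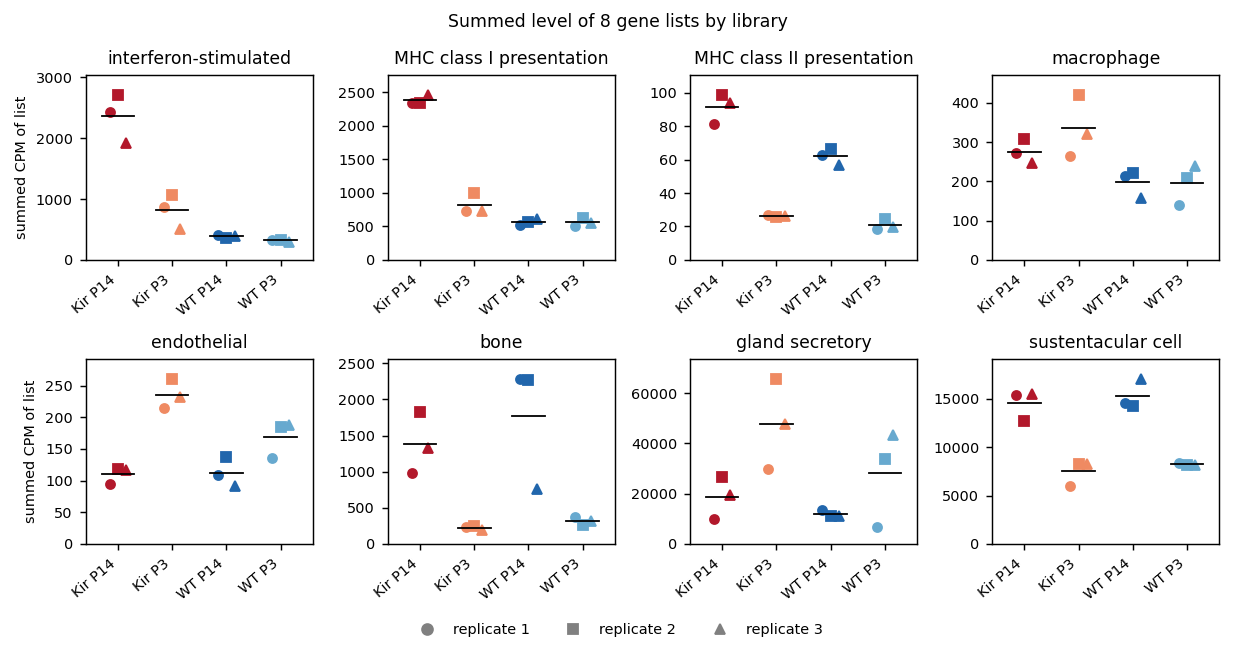
Summed CPM of 8 gene lists in the Kir P14, Kir P3, WT P14 and WT P3 libraries; symbols mark replicates and bars the group means. Interferon-stimulated and class I sums were highest in the Kir P14 libraries (1930 to 2710 and 2340 to 2460 CPM), class II, bone and sustentacular sums were high at P14 in both genotypes, and endothelial sums in Kir were lower at P14 (94.9 to 119 CPM) than at P3 (214 to 260 CPM).

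Genes of vessels, cilia and skeleton moved too. Over all genes tested, 12.9% were called higher and 12.6% lower in Kir. Of 16 endothelial genes, 12 fell and none rose in Kir (median -1.22), and 5 fell in WT (median -0.68). The falls in Kir were 8 without Kir P14 replicate 1 and 10 without Kir P3 replicate 2 or replicate 3. Emcn, or endomucin, had 2.45, 2.13 and 1.8 CPM in Kir P14 libraries, against 9.59, 15.2 and 11.8 CPM in Kir P3 libraries (-2.50 ± 0.39, adjusted p = 1.84e-05). Pecam1, the junction protein CD31, had 12.2, 14.1 and 12.2 CPM at P14, against 27, 39.1 and 26 CPM at P3 (-1.25 ± 0.24, adjusted p = 0.000243). The summed endothelial level was 94.9 to 119 CPM at P14 and 214 to 260 CPM at P3. Of 16 genes of respiratory multiciliated cells, 9 fell and 1 rose (median -0.64), and 3 fell without Kir P14 replicate 1. Mcidas, a regulator that starts the multiciliated program, had 1.39, 2.41 and 2.31 CPM at P14, against 10.6, 7.29 and 11.8 CPM at P3 (-2.31 ± 0.33, adjusted p = 4.63e-06). Bone genes went up, with 13 of 16 higher and none lower (median 2.95), and 13 of 16 also higher in WT. Bglap, osteocalcin, had 11, 26.2 and 12.9 CPM at P14, against 0.711, 0.308 and 0.335 CPM at P3 in Kir (5.20 ± 0.85, adjusted p = 2.72e-05). Col1a1, the main collagen of bone and connective tissue, had 3500, 5400 and 5060 CPM at P14, against 741, 703 and 556 CPM at P3 (2.80 ± 0.66, adjusted p = 0.00193). Of the 20 fibroblast and matrix genes 3 rose, Col1a1, Col1a2 and Sparc (adjusted p = 0.056 without Kir P3 replicate 3), and 5 fell, among them Pdgfra by 1.14 on the log2 scale. Those falls were 2 without Kir P14 replicate 1 and 3 without Kir P3 replicate 2. Cartilage genes gave 4 falls of 17, 1 without any 1 of the P14 libraries and 0 without Kir P3 replicate 3. That library had 197 CPM of Col2a1, the cartilage collagen, against 24.8 and 36.2 CPM in the other 2 P3 libraries. Levels of bone, cartilage and gland genes moved with age or with single libraries, and their part in the other results was not tested.

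Genes of fetal growth fell in both genotypes. Of 15 imprinted and fetal growth genes, 12 fell and none rose in Kir (median -1.65), and 10 fell in WT (median -1.60). H19 (chromosome 7, 142575529 to 142578143), an imprinted noncoding RNA, had 34.3, 60.6 and 87.9 CPM in Kir P14 libraries, against 496, 896 and 591 CPM in Kir P3 libraries. It changed by -3.44 ± 0.37 (adjusted p = 7.06e-08). Igf2, the fetal growth factor from the same locus, had 1.53, 2.88 and 4.37 CPM at P14, against 12.2, 18 and 13.6 CPM at P3 (-2.38 ± 0.39, adjusted p = 3.22e-05). Meg3, an imprinted noncoding RNA, changed by -3.04 ± 0.47, Igf2bp3, an RNA-binding protein of fetal tissue, by -1.65 ± 0.21, and Cdkn1c, a growth-restraining cell cycle inhibitor, by -1.60 ± 0.24. Of 79 cytosolic ribosomal protein genes 7 fell and none rose, a share below the 12.6% of all genes called lower. Of the 79, 78 had negative values (median -0.67). The number that fell was 1 without Kir P3 replicate 2, 3 without Kir P3 replicate 3, Kir P14 replicate 1 or Kir P14 replicate 2, 11 without Kir P3 replicate 1, 17 on TPM, 42 with the cry4 libraries alone and 39 with the 6 Kir libraries alone. Of 27 Wnt genes 7 fell, against 12.6% of all genes (median -0.35, 4 falls without Kir P14 replicate 1). In WT 9 Wnt genes fell and 1 rose. Sfrp1, a secreted Wnt inhibitor, stood at 139, 126 and 147 CPM at P14, against 193, 259 and 252 CPM at P3 in Kir.

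Few genes of the remaining lists were called. Of 18 immediate early genes 2 fell, against 12.6% of all genes, and 1 without any 1 library other than Kir P14 replicate 3. They were Nr4a1, which lost its call without Kir P3 replicate 3 (adjusted p = 0.13), and Nr4a2, which stood at 2.39, 4.36 and 2.7 CPM at P14, against 9.86, 9.14 and 9.64 CPM at P3 (-1.60 ± 0.28, adjusted p = 5.94e-05). Of 12 intrinsic apoptosis genes 2 rose (Bcl2 and Casp9), against 12.9% of all genes, and 1 fell. No rise was called without Kir P14 replicate 1, 1 without Kir P3 replicate 2 and 1 with the cry4 libraries alone. None of 8 mitochondrial genes was called (median -0.41), nor any of 9 red cell and 9 skeletal muscle genes. Of 13 ensheathing glia and myelin genes 1 rose (Apod) and 1 fell (Sox10, adjusted p = 0.117 without Kir P3 replicate 3), and of 11 brain neuron genes 1 rose.

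**Figure D4:**
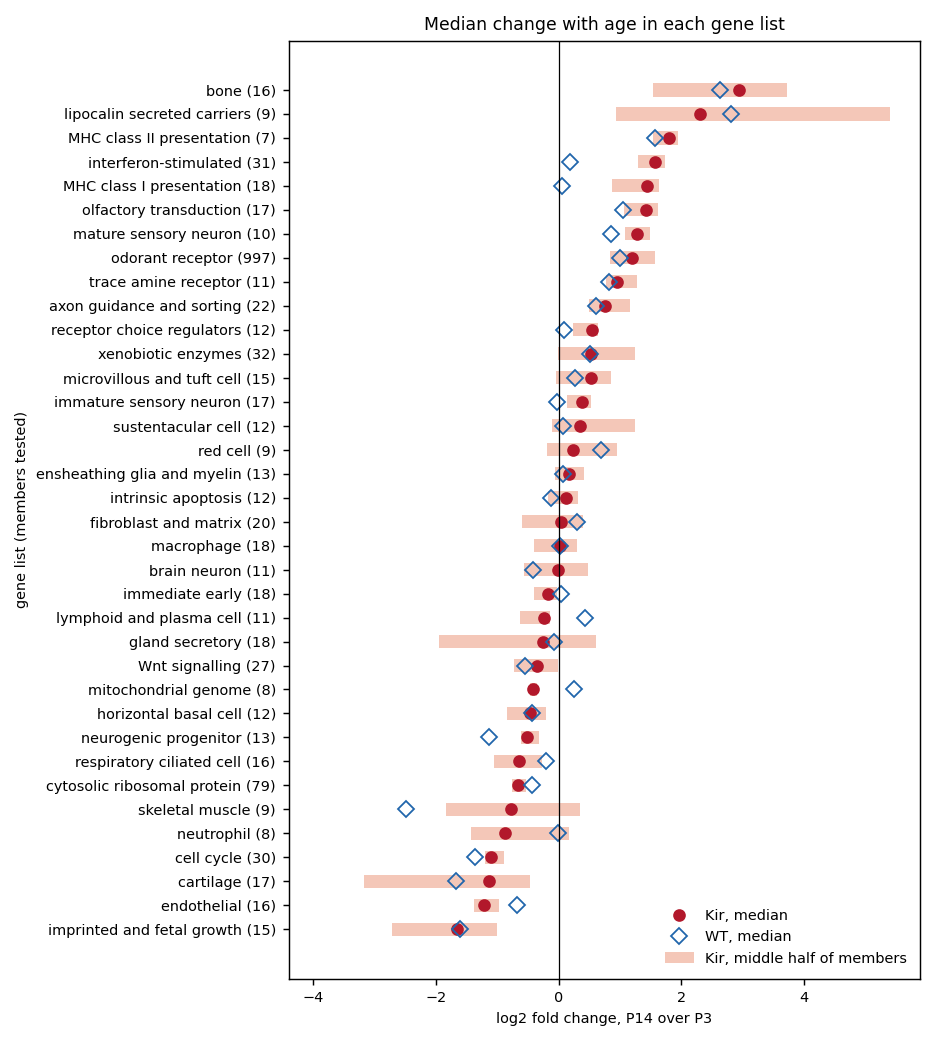
Median log2 fold change of P14 over P3 for each gene list in Kir (filled circles, with bars between the quartiles of the members) and in WT (open diamonds), with the number of members tested in brackets. Kir and WT medians were 1.57 and 0.19 for interferon-stimulated genes, 1.44 and 0.06 for MHC class I presentation, and -0.77 and -2.48 for skeletal muscle genes, of which none was called in Kir. The summed muscle level was 103 CPM in WT P3 replicate 1, against 8.91 and 7.94 CPM in WT P3 replicates 2 and 3.

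The largest single rises were ranked among genes called in Kir with at least 5 CPM in the higher group and no overlap between groups. They were Lcn4, Gm14743, Mepe, Obp1b, Obp2b, Bglap, Dmp1, Chil4, Tpm3-rs7, H2-Q6, Moxd2, Spp1, Col22a1, Apol9a and Atp10d. Lcn4, a lipocalin, had 16.2, 38.8 and 40.4 CPM at P14 and no count in any P3 library, at least 348-fold higher with 3 counts over the P3 group as floor. Mepe, a bone matrix protein, had 198 counts at P14 and 3 at P3, a ratio of 70.5 (95% counting interval 23.8 to 345). Moxd2 had 52.9, 30.7 and 47.8 CPM at P14, against 5.6, 2.47 and 2.08 CPM at P3 (3.71 ± 0.44, adjusted p = 2.28e-07). Atp10d, a phospholipid flippase gene annotated as a polymorphic pseudogene, had 235, 201 and 191 CPM at P14, against 23.4, 16.1 and 17 CPM at P3 (3.47 ± 0.64, adjusted p = 0.000132). H2-Q6 and Apol9a were near 0 in WT, between 0 and 0.529 CPM. Gm14743, Obp1b, Chil4 and Tpm3-rs7 lost their calls without Kir P3 replicate 3.

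The largest falls were Apol10c-ps, Agtr2, Apol10a, A4gnt, Car6, Muc5ac, Dlk1, Crisp3, Csn3, F5, Nrk, Olfm5, Rian, H19 and Car9. Olfm5, an olfactomedin, had 63.7, 62.2 and 66.6 CPM in Kir P14 libraries, against 597, 1120 and 721 CPM in Kir P3 libraries (-3.66 ± 0.38, adjusted p = 3.1e-08). Agtr2, the fetal angiotensin receptor, had 0, 0.278 and 0.129 CPM at P14, against 10.3, 21 and 20.3 CPM at P3. Rian, an imprinted noncoding RNA next to Meg3, had 3.25, 3.8 and 2.31 CPM at P14, against 53.7, 30.5 and 30.9 CPM at P3 (-3.59 ± 0.44, adjusted p = 4.54e-07). Dlk1, a Notch-related protein of the same locus, stood at 0.199, 0.186 and 0.257 CPM at P14, against 6.31, 6.58 and 8.5 CPM at P3. Car9, the hypoxia-linked carbonic anhydrase, changed by -3.29 ± 0.59 in Kir and by -1.34 in WT (difference -1.95 ± 0.86, adjusted p = 0.734). Muc5ac, a gland mucin, had 625 CPM in Kir P3 replicate 3, against 48 and 22.3 CPM in the other 2 P3 libraries, and lost its call without that library, as did Crisp3.

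Change with age in Kir followed that in WT for most genes. Of the 2576 genes that rose in Kir, 2505 (97.2%) had a positive value in WT, and 1589 were called higher there. Of the 2516 that fell, 2410 (95.8%) had a negative value in WT, and 1209 were called lower there. No gene was called in opposite directions. WT gave 4501 calls (22.6%), 2569 higher (12.9%) and 1932 lower (9.7%). Across genes, which are not independent replicates, the log2 fold changes of Kir and WT had a Pearson r of 0.678, and the pairs share no library.

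**Figure D5:**
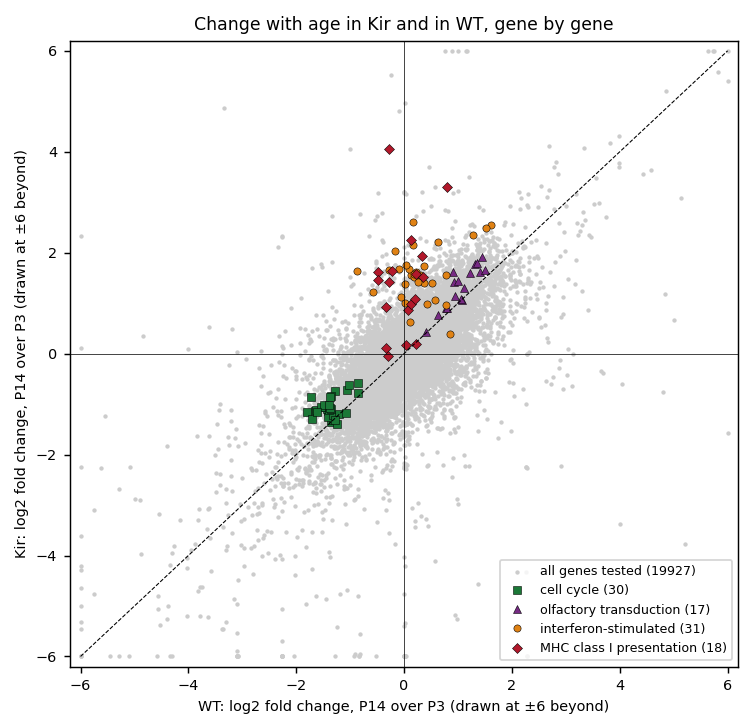
Log2 fold change of P14 over P3 in Kir (vertical axis) against WT (horizontal axis) for the 19927 genes tested, with 4 lists marked and the dashed line at equal change; values beyond 6 are drawn at the edge. Transduction genes lie near the line, and most cell cycle genes lie near or above it (median Kir minus WT difference 0.33). Interferon-stimulated and class I genes lie above it except Ifit2 and Erap1, with medians of 1.57 and 1.44 in Kir and 0.19 and 0.06 in WT.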

How the data were processed

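The authors' deposited tables hold whole-number counts and, separately, TPM for 54532 genes, made with bcl2fastq 2.18, STAR 2.6.1c, RSEM and mm10, per the submitters' processing notes. The sources used here do not give strand settings, so overlapping antisense genes cannot be told apart. The 4 lines that name no gene stayed out of library sizes and tests. In the 6 Kir libraries unmapped reads made up 2.29% to 16.4% of all reads, multiply mapped 7.9% to 16.2%, those in no gene 6.19% to 9.47% and ambiguous ones 3.06% to 3.66%. Multiply mapped reads were not counted to genes. For the tests, edgeR 4.0.16 in R 4.3.3 fitted all 47 libraries together, with TMM factors, filterByExpr, group means and a title-prefix term. Quasi-likelihood F tests with Benjamini-Hochberg adjustment were called at 0.05, and the errors given with log2 fold changes are SE. Alternatives used DESeq2 1.42.0, limma 3.58.1 and other filters, scalings and subsets. The fit was checked on simulated counts. Positions are from GENCODE M21 and promoters from RefSeq (GRCm38.p6). No replicates were duplicates, as their counts differed by 8.8 to 42.2 times the sampling variance. The genes and lists were chosen with earlier results of these data known. Named are the 15 largest rises and falls, up to 4 genes per list by adjusted p, Kcnj2, Omp, Gap43 and Mki67, and members that account for a list.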

Additional observations from a re-analysis of the deposited data

How the results depend on the processing

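The count of 5092 calls between P14 and P3 in Kir ranged from 3987 to 5324 over the alternatives that kept all 6 libraries, and no called gene changed sign on counts. With limma on log2(TPM + 1), 36 of the 5092 genes had the opposite sign and 3237 were called again. With limma on log2(TPM + 0.1) these numbers were 35 and 3222. Leaving out 1 Kir library gave 3211 (without Kir P3 replicate 2, 1664 higher and 1547 lower) to 4915 calls. Of 176 named genes with a call, 114 kept call and direction in all 17 alternatives. The difference between genotypes, with 0 calls, gave 2 calls with no filter on low counts, 3 with limma on log2(TPM + 1), 2 with limma on log2(TPM + 0.1), 14 with DESeq2 (9 positive), 6 with the 12 libraries alone and 5 with the cry4 libraries alone, the last chosen after seeing the data. Without 1 library it gave 0 to 1. The cause of these changes was not tested. Negative DESeq2 calls were Amelx, Calm4, Iqsec3, Serpinb2 and Crnn, with log2 differences of -34.03 to -18.22. Among the positive ones was Y-linked Ddx3y at 25.79, which had no count in the Kir P3 libraries. Values of that size were not read as effects. The difference in odorant receptor share, 0.206 percentage points, ranged from 0.1691 to 0.2506 without 1 library and was 0.185 on TPM. Same-numbered libraries deviated with r of -0.0118, 0.288 and 0.094 in Kir and 0.137, 0.133 and 0.167 in WT, where every other pairing was negative. Deviations from a group mean cancel out, so positive same-numbered values force the other pairings to be negative on average. As 2 Kir pairs were below 0.1, the numbers were not taken as pairs. A replicate block gave 4516 calls in the 6 Kir libraries, against 3987 without it, and 19 calls for the difference, 18 of them positive, with interferon-stimulated and class I genes among them. Low counts limit genes such as Cd79a, with 4 counts at P14 and 20 at P3 in Kir, and Taar9, with 57 at P14 and 8 at P3. Intervals cover counting error only.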
